A study of Mus musculus with 6 samples.

Results

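The genes of mitosis, the kinetochore and cytokinesis were examined as a set of 57 genes, listed by name for their function. The list was made with earlier results of these data known, so its counts are descriptions and not independent support. All 57 had a row among the 14788 gene symbols of the count table, and all 57 passed the filter on low counts that left 11504 genes for testing. RNA was sequenced from type-2 conventional dendritic cells (cDC2s) of the spleen of C57BL/6 mice, with 3 libraries from wild-type (WT) cells and 3 from Arhgef1-/- cells. The cDC2 is a dendritic cell that takes up antigen and presents it mainly to CD4 T cells. Arhgef1 encodes an exchange factor that switches on the small GTPase RhoA downstream of G12 and G13 proteins. No treatment is given for either group, and the labels state neither the age of the mice, nor which part of Arhgef1 was deleted, nor whether the libraries of a group came from separate mice. The p-values therefore measure the spread between these libraries, which may be technical.

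In a dividing cell, cyclin A and cyclin B bind the kinase CDK1 and drive entry into mitosis. Chromosomes are then packed by condensin and topoisomerase II, attached through their kinetochores to the spindle, held back by the spindle checkpoint until every kinetochore is attached, and released when the anaphase-promoting complex triggers cleavage of cohesin. The cell is finally pinched apart by a contractile ring that RhoA controls, through the exchange factor Ect2. Most genes of this programme are silent in resting cells and are transcribed late in the cell cycle, so their RNA in a tissue is used as a sign of cycling cells. Splenic cDC2s arise from precursors that divide, and cDC2s can also divide in the spleen.

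Total counts per library ran from 8408325 to 11714365. Arhgef1 itself stood at 287, 317 and 246 CPM (a gene's share of the library, scaled to a common library size adjusted by TMM) in WT replicates 1, 2 and 3 and at 115, 128 and 144 CPM in Arhgef1-/- replicates 1, 2 and 3, and all other triplets of values are given in the same order. It fell by 1.13 on the log2 scale (SE 0.11; edgeR adjusted p = 6.96e-06). The WT libraries all came from lane 1 of one run name and the Arhgef1-/- libraries from lane 2 of another, per the labels, so lane and genotype cannot be told apart. The defining cDC2 markers Itgax, Flt3, Sirpa, Itgam and Irf4 were present in all libraries. The 10 cDC2 markers summed to 12166 to 13513 CPM in WT and 10285 to 11149 CPM in Arhgef1-/-. By the test used below 4 of the 10 were lower and 0 higher, against 4.58% and 5.09% of all genes tested. The 4 were Cd4 (log2 fold change -0.67), Clec4a4 (-0.40), Sirpa (-0.32) and H2-Ab1 (-0.30). In 7 of the 10 all 3 Arhgef1-/- values lay below all 3 WT values, against 13.5% of all genes tested.

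In each of the 9 roles most, but not always all, mitosis genes were higher in Arhgef1-/- cDC2s. Of the 57 genes 50 rose, 0 fell and 7 did not pass the test (edgeR quasi-likelihood test, Benjamini-Hochberg adjusted p under 0.05 over all 11504 genes). Of all genes tested, 5.09% were higher and 4.58% were lower by the same rule. At an unadjusted p under 0.05, 53 of the 57 were higher and 0 were lower, against 11.6% and 10.7% of all genes tested. DESeq2's Wald test called 50 higher and 0 lower, against 5.94% and 5.31% of the genes to which it gave an adjusted p. The median log2 fold change of the 57 was 0.97, against 0.00 over all genes tested. Between 0.8 and 1.2 lay 42 of the 57, against 364 of all 11504 genes tested. In bulk RNA, more cells with these transcripts and more of these transcripts per cell cannot be told apart.

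**Figure D1:**
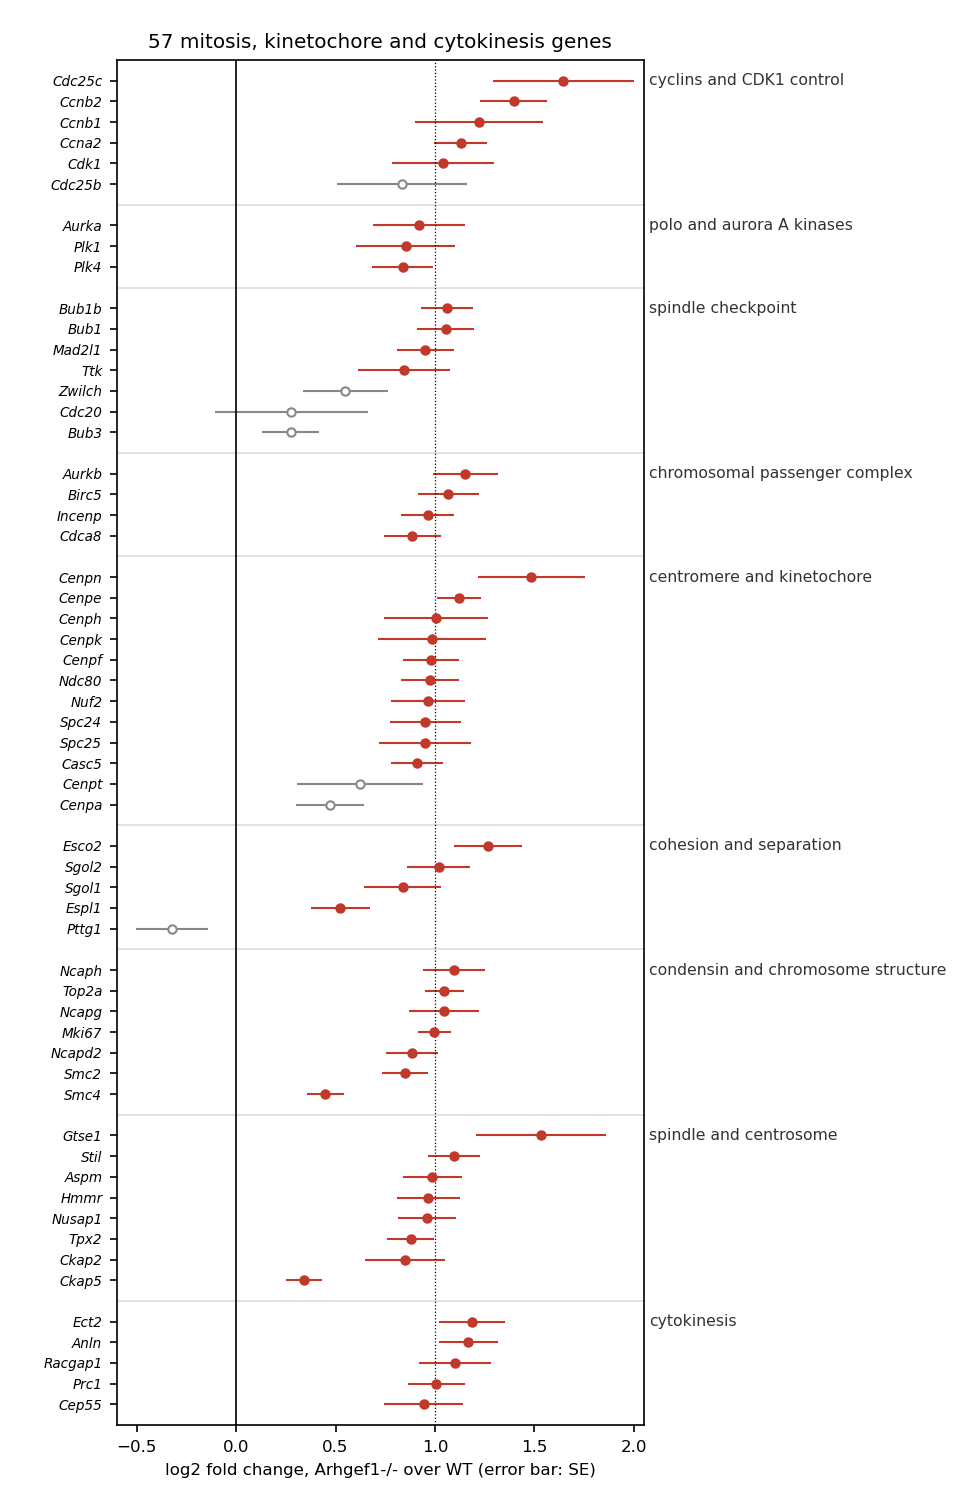
Log2 fold change of each of the 57 genes, Arhgef1-/- over WT (x axis), with its standard error as a bar, grouped by role. Filled points passed the edgeR test and open points did not. The dotted line marks 1, around which most points lie, while Pttg1 is the one point to the left of 0.

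In 53 of the 57 genes all 3 Arhgef1-/- values lay above all 3 WT values, in 4 they overlapped, and in 0 they all lay below. Over all genes tested, 13.7% had all 3 Arhgef1-/- values above the WT values. The share of all counts taken by the 57 genes was 0.416%, 0.346% and 0.394% in WT and 0.698%, 0.784% and 0.691% in Arhgef1-/-. Summed, they came to 4269, 3471 and 3976 CPM in WT and to 6834, 7785 and 6898 CPM in Arhgef1-/-. The groups thus did not overlap, and WT replicate 2 was the lowest library.

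The 57 genes also moved together between libraries of one genotype. WT replicate 2 was the lowest WT library in 41 of the 57 genes, while it was the lowest in 33.2% of all genes tested. Arhgef1-/- replicate 2 was the highest Arhgef1-/- library in 37 of the 57, against 33.7% of all genes tested. Relative to the WT mean of each gene, on the log2(CPM + 1) scale, the median of the 57 was 0.12, -0.17 and 0.048 in WT and 0.87, 1.06 and 0.91 in Arhgef1-/-. The spread within a genotype was therefore smaller than the gap between the genotypes.

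**Figure D2:**
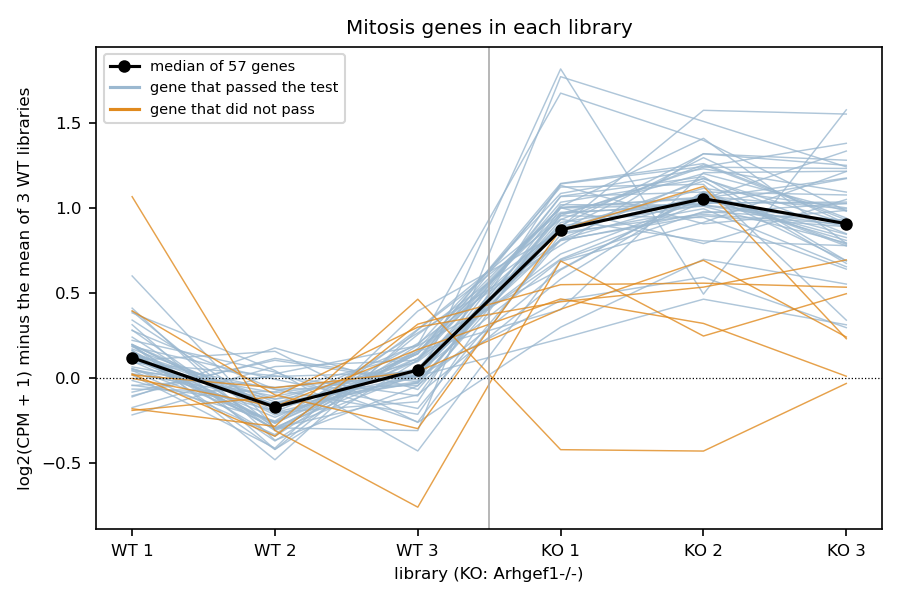
Level of the 57 genes in each library (x axis) as log2(CPM + 1) minus the gene's mean over the 3 WT libraries (y axis), with 1 line per gene joining its 6 values and the median in black. The medians are -0.17 to 0.12 in WT and 0.87 to 1.06 in Arhgef1-/-; orange lines are the 7 genes that did not pass the test.

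Markers of other blood cell types were read beside these genes. Of all genes tested, 5.09% were higher and 4.58% were lower by the edgeR test. Among erythroid markers 0 of 3 tested were called, and the 5 analysed summed to 8.98 to 15.5 CPM in WT and 7.68 to 14.9 CPM in Arhgef1-/-; globin genes and Gata1 were not analysed here. Among B cell markers 0 of 7 tested were called, with sums of 388 to 453 and 449 to 509 CPM, most of which was Cd22. The 2 plasma cell markers analysed, Igj and Sdc1, summed to 3.34 to 4.31 and 3.41 to 11.997 CPM, and Igj, the 1 tested, was not called.

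In the progenitor list Kit, a growth factor receptor, stood at 758, 797 and 797 CPM in WT and fell by 0.29 on the log2 scale (SE 0.07, edgeR adjusted p = 0.0182). Its call was lost without WT replicate 2 (-0.28), WT replicate 3 (-0.27) or Arhgef1-/- replicate 2 (-0.25). Myb, a transcription factor of dividing blood progenitors, rose from 12.3, 4.72 and 4.84 to 17.1, 17.996 and 18.5 CPM (1.28 ± 0.33, adjusted p = 0.0187). That call was lost without WT replicate 2 (1.05), WT replicate 3 (1.06), Arhgef1-/- replicate 2 (1.28) or Arhgef1-/- replicate 3 (1.26). Cd34 stayed at or under 2.79 CPM, and Mpo had counts only in WT replicate 1. Of 16 macrophage markers 13 fell, 0 rose and 3 did not pass, against 4.58% lower and 5.09% higher over all genes tested. The macrophage markers summed to 747 to 1193 CPM in WT and 273 to 444 CPM in Arhgef1-/-.

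The monocyte markers summed to 156 to 250 CPM in WT and 92.2 to 132 CPM in Arhgef1-/-. Of the 3 tested 1 fell, against 4.58% of all genes tested. The gene was Csf1r, the receptor of a macrophage growth factor (232, 153 and 143 to 107, 86.4 and 118 CPM; -0.76 ± 0.16, adjusted p = 0.00407). The sums of the 5 cDC1 markers overlapped, at 66.6 to 104 and 45.6 to 121 CPM. Of these markers 1 fell, against 4.58% of all genes tested. It was Cadm1, an adhesion molecule (-1.08 ± 0.32, adjusted p = 0.0411), whose call was lost without WT replicate 1 (-0.80), WT replicate 2 (-1.16), Arhgef1-/- replicate 2 (-0.998) or Arhgef1-/- replicate 3 (-0.92). Neutrophil markers summed to 1.53 to 3.34 CPM in WT and 0.31 to 24.8 CPM in Arhgef1-/-, with the highest sum in Arhgef1-/- replicate 1, and S100a9, the 1 tested, was not called. No T cell, NK cell, platelet or plasmacytoid marker tested was called. T cell markers summed to 5.27 to 9.55 CPM in WT and 2.79 to 15.7 CPM in Arhgef1-/-, highest in Arhgef1-/- replicate 1. The part of any of these markers in the mitosis result was not tested.

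Cyclins and the proteins that switch on CDK1 gave the highest median of the 9 roles, a log2 fold change of 1.18, and 5 of 6 rose. Ccnb2, which encodes cyclin B2, stood at 32.95, 30.4 and 39.04 CPM in WT and 111, 91.1 and 68.1 CPM in Arhgef1-/- (1.40 ± 0.17, SE; edgeR adjusted p = 4.59e-05). Ccna2, the gene of cyclin A2, was at 73.9, 52.3 and 76.2 and 142, 158 and 143 CPM (1.13 ± 0.13, adjusted p = 3.69e-05). In both genes the lowest Arhgef1-/- library lay well clear of the highest WT library. Cdc25c, a phosphatase that removes the inhibitory phosphates from CDK1, had the largest log2 fold change of the 57 (1.65 ± 0.36, adjusted p = 0.00607) at low counts, with 6.42, 2.99 and 2.95 CPM in WT and 15.7, 12.9 and 10.6 CPM in Arhgef1-/-. Its relative Cdc25b, which acts earlier in mitotic entry, was at 9.004, 6.10 and 5.19 and 12.9, 15.6 and 7.93 CPM (0.83 ± 0.33, adjusted p = 0.13); the groups overlapped and it did not pass.

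Cdk1 was at 12.1, 9.21 and 12.6 CPM in WT and 15.1, 27.2 and 27.4 CPM in Arhgef1-/- (1.04 ± 0.26, adjusted p = 0.0155), with Arhgef1-/- replicate 1 nearest to WT. Its call was lost without WT replicate 2 (0.92), Arhgef1-/- replicate 2 (0.91) or Arhgef1-/- replicate 3 (0.91). Ccnb1, the gene of cyclin B1, was at 4.98, 3.57 and 5.07 and 10.01, 10.4 and 11.4 CPM (1.22 ± 0.32, adjusted p = 0.0217). Its call was lost without WT replicate 1 (1.30), WT replicate 2 (1.08), Arhgef1-/- replicate 2 (1.23) or Arhgef1-/- replicate 3 (1.17). The level of Ccnb1 is uncertain: in GENCODE vM21, 5 other genes had transcripts that matched one of its transcripts at 95% identity or more over at least 200 bases, the longest over 1294 bases at 98.1%, so reads could have been shared or dropped in counting. Per kilobase of exon, Ccnb1 had 1.08 CPM in WT where Ccnb2 had 22.3.

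The polo kinases and aurora A, which build the centrosomes and spindle poles, all rose by nearly the same amount. Plk4, the kinase that starts centriole duplication, was at 48.8, 42.7 and 34.7 and 75.7, 84.1 and 66.2 CPM (0.84 ± 0.15, adjusted p = 0.00154). Plk1, the main polo kinase of mitosis, was at 12.9, 7.71 and 13.8 and 22.2, 20.3 and 19.9 CPM (0.85 ± 0.25, adjusted p = 0.0376). Aurka was at 13.2, 9.56 and 17.5 and 24.4, 26.4 and 25.3 CPM (0.92 ± 0.23, adjusted p = 0.0166). The WT and Arhgef1-/- values did not overlap in any of these genes. The calls of Plk1 and Aurka were nevertheless lost in some fits that left out 1 library. That of Plk1 was lost without WT replicate 1 (0.95), WT replicate 2 (0.64), Arhgef1-/- replicate 1 (0.81), Arhgef1-/- replicate 2 (0.87) or Arhgef1-/- replicate 3 (0.89). That of Aurka was lost without WT replicate 1 (0.91), WT replicate 2 (0.73) or Arhgef1-/- replicate 2 (0.89).

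Spindle checkpoint genes split into those that rose and those that did not pass. Bub1b (BubR1), part of the complex that holds back anaphase, was at 80.1, 62.8 and 56.6 and 133, 134 and 149.6 CPM (1.06 ± 0.13, adjusted p = 4.95e-05). The kinase gene Bub1 rose by 1.05 ± 0.14 and Mad2l1, the gene of MAD2, by 0.95 ± 0.14 on the log2 scale. Ttk (MPS1), the kinase that starts the checkpoint, rose by 0.85 ± 0.23 (adjusted p = 0.0279), and its call was lost without WT replicate 2 (0.70), WT replicate 3 (0.78), Arhgef1-/- replicate 2 (0.69) or Arhgef1-/- replicate 3 (0.87).

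Bub3, the partner of Bub1 and Bub1b on the kinetochore, was at 63.1, 56.2 and 71.1 CPM in WT and 87.7, 79.2 and 63.7 CPM in Arhgef1-/- (0.27 ± 0.14, adjusted p = 0.269). Its groups overlapped, unlike those of both partners. Cdc20, the activator of the anaphase-promoting complex that the checkpoint inhibits, was at 20.1, 7.14 and 4.95 and 15.2, 10.96 and 13.2 CPM (0.28 ± 0.38, adjusted p = 0.741). WT replicate 1 alone was high in Cdc20, above every Arhgef1-/- library, whereas the other WT libraries lay below them, and the log2 fold change was 1.12 without WT replicate 1 (adjusted p = 0.0707) and -0.061 without WT replicate 3. Zwilch, a subunit of the complex that brings dynein to kinetochores, had Arhgef1-/- values all above WT, at 16.8, 12.8 and 20.8 and 24.6, 24.7 and 24.3 CPM, and did not pass (0.55 ± 0.21, adjusted p = 0.125).

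**Figure D3:**
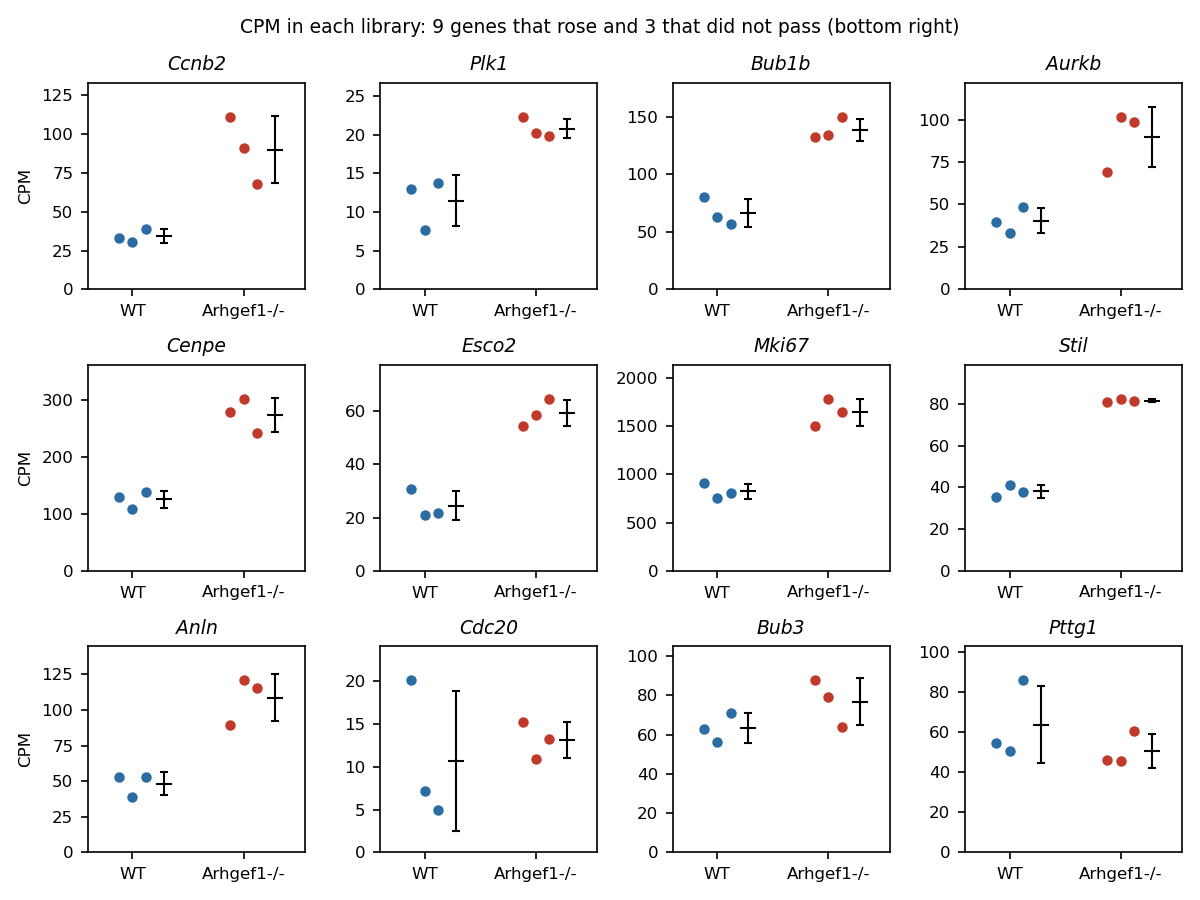
CPM of 12 genes in each library (points), with the mean and SD of the 3 libraries of a genotype beside them; each y axis starts at 0. In the first 9 panels every Arhgef1-/- point lies above every WT point, and in Cdc20, Bub3 and Pttg1 the groups overlap.

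All 4 genes of the chromosomal passenger complex rose, by 0.89 to 1.15 on the log2 scale. Aurkb, the kinase that corrects faulty attachments, was at 39.6, 33.4 and 48.2 and 69.4, 101 and 98.6 CPM (1.15 ± 0.17, adjusted p = 1.94e-04). Birc5, which encodes survivin, was at 26.7, 23.8 and 26.8 and 53.8, 59.3 and 49.2 CPM (1.07 ± 0.15, adjusted p = 2.06e-04). The scaffold gene Incenp rose by 0.96 ± 0.13 and Cdca8, which encodes borealin, by 0.89 ± 0.14. The standard errors of the 4 fold changes overlapped.

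Of 12 centromere and kinetochore genes 10 rose and 2 did not pass, and in all 12 the Arhgef1-/- values lay above the WT values. Cenpe, a kinetochore motor that moves chromosomes to the spindle equator, was at 131, 109 and 139 and 279, 303 and 242 CPM (1.12 ± 0.11, adjusted p = 6.96e-06). The 4 subunits of the NDC80 complex, which grips the microtubule, moved by almost the same factor: Ndc80 by 0.98 ± 0.15, Nuf2 by 0.97 ± 0.18, Spc24 by 0.95 ± 0.18 and Spc25 by 0.95 ± 0.23. The call of Spc25 was lost without WT replicate 1 (0.91), WT replicate 2 (0.91) or Arhgef1-/- replicate 2 (0.81). Ndc80 shares stretches of at least 200 bases at 95% identity or more with 2 other GENCODE genes, which leaves its count less certain. Casc5 (Knl1), the scaffold that docks Bub1 and Bub1b, rose by 0.91 ± 0.13, and Cenpf, a large protein of the outer kinetochore, by 0.98 ± 0.14.

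The inner kinetochore, which sits on the centromere throughout the cell cycle, was less even. Cenpn, which encodes a protein that reads the centromeric nucleosome, rose most (6.61, 8.29 and 6.84 to 14.2, 23.5 and 23.1 CPM; 1.49 ± 0.27, adjusted p = 0.00159). Cenpa, the histone H3 variant that marks the centromere, was at 27.1, 25.7 and 27.5 and 35.7, 43.9 and 31.8 CPM and did not pass (0.47 ± 0.17, adjusted p = 0.0987). Cenpt, the protein that links this layer to NDC80, was at 5.17, 5.53 and 7.67 and 8.61, 9.20 and 10.4 CPM and did not pass either (0.62 ± 0.32, adjusted p = 0.26). Cenpt had 452 reads over the 6 libraries, among the fewest of the 57 genes, and the standard error of its fold change was among the widest. Cenph rose by 1.01 ± 0.26 and Cenpk by 0.98 ± 0.27. The call of Cenph was lost without WT replicate 2 (0.87), Arhgef1-/- replicate 2 (0.99) or Arhgef1-/- replicate 3 (0.96). That of Cenpk was lost without WT replicate 2 (0.98), WT replicate 3 (0.78), Arhgef1-/- replicate 2 (1.003) or Arhgef1-/- replicate 3 (0.83).

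The genes that hold sister chromatids together and release them differed most among themselves. Esco2, the acetyltransferase that establishes cohesion during DNA replication, was at 30.8, 20.8 and 21.8 and 54.5, 58.5 and 64.5 CPM (1.27 ± 0.17, adjusted p = 1.26e-04). The shugoshin genes, whose products protect centromeric cohesin, rose by 0.84 ± 0.20 (Sgol1) and 1.02 ± 0.16 (Sgol2). The call of Sgol1 was lost without WT replicate 2 (0.67) or Arhgef1-/- replicate 2 (0.78). The exons of Sgol2 overlap those of Kctd18 on the other strand over 2455 bases, and since no strand setting is given the reads of this pair cannot be told apart.

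Espl1, the gene of separase, the protease that cuts cohesin, was at 55.8, 58.03 and 43.2 and 64.1, 84.9 and 76.7 CPM and rose less (0.52 ± 0.15, adjusted p = 0.0324). Its call was lost without WT replicate 1 (0.57), WT replicate 2 (0.60), WT replicate 3 (0.40), Arhgef1-/- replicate 2 (0.42) or Arhgef1-/- replicate 3 (0.51). Pttg1, the gene of securin, which binds and inhibits separase until anaphase, was the exception in direction. It was at 54.5, 50.7 and 85.8 CPM in WT and 45.98, 45.7 and 60.5 CPM in Arhgef1-/-, with WT replicate 3 the highest of the 6 libraries. Its log2 fold change was -0.32 ± 0.18 and it did not pass (adjusted p = 0.318). Pttg1 had 3283 reads over the 6 libraries, more than 26 of the 50 genes that rose. Whether depth bears on its result was not tested.

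All 7 genes of condensin and chromosome structure rose, and they held the most abundant transcripts of the set. Mki67, which coats mitotic chromosomes and encodes the antigen Ki-67, was at 908, 753 and 807 CPM in WT and 1502, 1779 and 1643 CPM in Arhgef1-/- (0.997 ± 0.08, adjusted p = 1.57e-06). Top2a, the topoisomerase that untangles sister chromatids, was at 395, 299 and 347 and 675, 795 and 682 CPM (1.05 ± 0.10, adjusted p = 6.96e-06). Neither gene had an Arhgef1-/- value near its WT range.

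Condensin I is made of Smc2 and Smc4 together with Ncapd2, Ncapg and Ncaph. Ncapd2, Ncapg and Ncaph rose by 0.89 ± 0.13, 1.05 ± 0.18 and 1.10 ± 0.16, and Smc2 by 0.85 ± 0.11. Smc4 was at 626, 507 and 570.4 and 777, 854 and 695 CPM and rose by 0.45 ± 0.09 (edgeR adjusted p = 0.00385). The WT level of Smc4 per kilobase of exon was 109 CPM, against 23.5 for Smc2. Its fold was smaller than those of the other condensin I subunits. The difference between these folds was not tested. Exons of Ncapg overlap those of Lcorl on the other strand over 944 bases.

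All 8 spindle and centrosome genes rose. Stil, a centriole assembly factor, was at 35.3, 41.3 and 37.7 and 80.9, 82.4 and 81.4 CPM (1.10 ± 0.13, adjusted p = 4.17e-05). Aspm, which organises spindle poles and is known for its role in brain size, rose by 0.99 ± 0.15, Hmmr by 0.97 ± 0.16, the spindle assembly factor Tpx2 by 0.88 ± 0.12 and the microtubule bundler Nusap1 by 0.96 ± 0.15. Gtse1, a microtubule-binding protein that is also a regulator of p53, was at 5.84, 6.79 and 6.13 and 24.6, 9.20 and 20.6 CPM (1.53 ± 0.33, adjusted p = 0.00548), with Arhgef1-/- replicate 2 far below the other two.

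Ckap2 rose by 0.85 ± 0.20, and its call was lost without WT replicate 1 (0.74) or Arhgef1-/- replicate 2 (0.68). Ckap5 (chTOG), a microtubule polymerase that also serves non-dividing cells, was at 197, 184 and 193 and 225, 264 and 238 CPM and rose by 0.34 ± 0.09 (adjusted p = 0.0255), the smallest fold among the genes that passed. Its call was lost without WT replicate 1 (0.36), WT replicate 2 (0.31), WT replicate 3 (0.35), Arhgef1-/- replicate 2 (0.27) or Arhgef1-/- replicate 3 (0.36).

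All 5 cytokinesis genes rose, with a median of 1.10, and none lost its call when any 1 library was left out. Anln, whose product anillin ties the contractile ring to the membrane, was at 53.2, 38.7 and 52.96 and 89.7, 121 and 115 CPM (1.17 ± 0.15, adjusted p = 7.13e-05). Ect2, the exchange factor that activates RhoA at the equator of the dividing cell, was at 20.98, 18.8 and 20.3 and 39.7, 48.6 and 48.3 CPM (1.19 ± 0.17, adjusted p = 1.75e-04). Its partner Racgap1, a subunit of centralspindlin, was at 32.95, 23.1 and 31.4 and 59.02, 78.3 and 50.6 CPM (1.10 ± 0.18, adjusted p = 6.50e-04). The rises of Ect2 and Racgap1 were near the cytokinesis median of 1.10, and a link to the fall of Arhgef1 was not tested. Prc1, which bundles the microtubules of the midzone, rose by 1.01 ± 0.14, and Cep55, which recruits the abscission machinery to the midbody, by 0.94 ± 0.20. Exons of Prc1 overlap those of Rccd1 on the other strand over 911 bases.

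Levels were compared between genes as CPM per kilobase of merged GENCODE exons. In WT the highest were Smc4 (109), Mki67 (81.8), Top2a (38.5), Pttg1 (31.8), Smc2 (23.5), Ccnb2 (22.3) and Ckap5 (20.2). The lowest were Cdc25c (0.838), Ccnb1 (1.08), Cenpt (1.68), Cdc25b (1.81) and Cenpk (1.82). In Arhgef1-/- Mki67 (163) stood above Smc4 (149), Top2a was at 79.6, and Pttg1 (25.4) stood below Ccnb2 (58.8), the reverse of their order in WT. The plot of level against fold change, in CPM without a correction for length, sets the 57 genes among all genes tested.

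Some counts are less certain than others. Mad2l1, Mki67 and Racgap1 each shared a stretch of 454, 216 and 488 bases with 1 other GENCODE gene at 95% identity or more. Exons overlapped those of a gene on the other strand over 510 bases in Ccna2 (Exosc9), 623 in Cdc25c (Gm3550), 254 in Zwilch (Lctl), 233 in Cenpk (Ppwd1), 232 in Cdca8 (9930104L06Rik) and 172 in Nusap1 (Oip5). Exons of Plk1 overlapped those of Gm44985, also on the other strand, over 156 bases. Without a strand setting the reads in these stretches cannot be assigned. On the same strand, Top2a overlapped Gm23451 over 122 bases. Ncapd2 overlapped Scarna10 and Gm28967 on its own strand, over 237 bases at most.

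**Figure D4:**
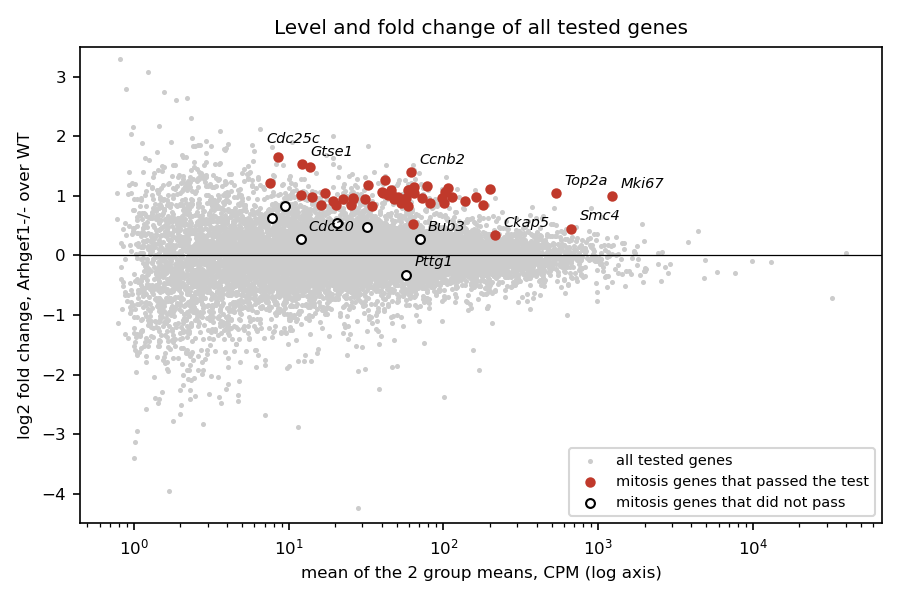
Log2 fold change, Arhgef1-/- over WT (y axis), against the mean of the group means in CPM (x axis, log scale) for the 11504 genes tested (grey), with the 50 mitosis genes that passed the test in red and the 7 that did not as open circles. Of the 57 mitosis genes 42 lie between 0.8 and 1.2, against 364 of all 11504 genes tested. Among the red points Smc4, Ckap5 and Espl1 lie lowest, and Cdc25c, Gtse1 and Cenpn highest.

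Because late cell cycle genes are commonly controlled through a promoter element called the CHR together with CCAAT boxes, the promoters were read beside the counts. RefSeq windows (GRCm38.p6, the assembly of mm10) of 250 bases before to 50 after the gene start were found for 48 of the 57 genes, 3 of them under a newer symbol, and the first window listed was used. Ccna2, Cdc25c, Zwilch, Aurkb, Incenp, Spc24, Esco2, Smc4 and Tpx2 had no window. The CHR was searched as TTTGAA or TTTAAA and the CCAAT box as CCAAT, both on either strand, and a CHR and a CCAAT match can share at most 1 base. In 40 of the 48 genes the RefSeq start lay within 100 bases of the outermost start of the gene in GENCODE. Of the genes shown, that of Sgol2 lay 10631 bases before it and that of Pttg1 270 bases inside the gene, so the bases next to the GENCODE start of this pair were not read. The stretches shown are the last 150 bases before the RefSeq start, 5′ to 3′ on the gene's strand with matches in capitals, for the gene with the smallest p in each role and for Pttg1 and Cdc20, the genes with the largest p, in each case among those with a window.
Ccnb2 (chr9:70421555-70421704, minus strand): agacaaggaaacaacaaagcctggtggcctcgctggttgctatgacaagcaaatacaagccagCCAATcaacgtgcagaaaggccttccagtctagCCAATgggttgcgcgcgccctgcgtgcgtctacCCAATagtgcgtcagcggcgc
Plk4 (chr3:40799801-40799950, plus strand): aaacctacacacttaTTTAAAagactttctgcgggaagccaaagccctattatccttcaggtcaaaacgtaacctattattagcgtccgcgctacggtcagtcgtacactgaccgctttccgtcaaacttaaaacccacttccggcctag
Bub1b (chr2:118598061-118598210, plus strand): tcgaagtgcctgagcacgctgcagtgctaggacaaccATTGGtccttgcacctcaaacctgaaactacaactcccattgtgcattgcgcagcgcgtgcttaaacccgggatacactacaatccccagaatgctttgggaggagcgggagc
Birc5 (chr11:117849087-117849236, plus strand): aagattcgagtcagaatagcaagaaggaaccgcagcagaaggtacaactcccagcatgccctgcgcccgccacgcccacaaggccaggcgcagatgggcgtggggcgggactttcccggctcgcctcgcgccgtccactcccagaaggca
Cenpe (chr3:135212413-135212562, plus strand): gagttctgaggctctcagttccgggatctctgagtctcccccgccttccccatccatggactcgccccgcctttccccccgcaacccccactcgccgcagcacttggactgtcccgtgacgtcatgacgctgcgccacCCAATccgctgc
Sgol2 (chr1:57985190-57985339, plus strand): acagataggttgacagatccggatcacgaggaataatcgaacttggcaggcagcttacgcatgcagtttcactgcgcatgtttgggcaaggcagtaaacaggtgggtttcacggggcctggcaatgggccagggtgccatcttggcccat
Mki67 (chr7:135716380-135716529, minus strand): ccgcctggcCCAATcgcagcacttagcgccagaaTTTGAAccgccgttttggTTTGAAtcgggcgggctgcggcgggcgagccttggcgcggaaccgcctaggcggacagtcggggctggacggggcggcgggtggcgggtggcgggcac
Stil (chr4:114999968-115000117, plus strand): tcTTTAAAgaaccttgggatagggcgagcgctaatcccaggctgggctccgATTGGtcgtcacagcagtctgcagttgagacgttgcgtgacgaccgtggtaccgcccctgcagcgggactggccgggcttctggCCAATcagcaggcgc
Anln (chr9:22389207-22389356, minus strand): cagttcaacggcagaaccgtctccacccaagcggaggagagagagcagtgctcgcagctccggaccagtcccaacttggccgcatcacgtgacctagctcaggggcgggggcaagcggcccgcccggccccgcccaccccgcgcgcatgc
Pttg1 (chr11:43425982-43426131, minus strand): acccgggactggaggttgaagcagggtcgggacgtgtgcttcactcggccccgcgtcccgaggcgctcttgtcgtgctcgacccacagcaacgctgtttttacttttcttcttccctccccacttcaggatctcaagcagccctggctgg
Cdc20 (chr4:118437344-118437493, minus strand): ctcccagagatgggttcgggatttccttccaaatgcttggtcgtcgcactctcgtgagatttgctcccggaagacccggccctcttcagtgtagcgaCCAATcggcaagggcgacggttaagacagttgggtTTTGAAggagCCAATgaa

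Of the 48 windows 37 (77.1%) held a CHR match, against 27.8% of the first windows of all 27025 genes in the table. A CCAAT match was in 36 (75%), against 37.9%, and both were in 30 (62.5%), against 10.9%. Among tested genes found under the same symbol, 19.2% of first windows held a CHR match and 7.80% held both. Of the 42 genes with a window that rose, 33 held a CHR match, and of the 6 that did not pass, 4 did. The windows of Ccnb2 and Stil each held 3 CCAAT matches, of which 3 and 2 lie in the stretch shown. In Mki67 a pair of TTTGAA matches starts 116 and 98 bases before the start. In Cdc20, which did not pass the test, a TTTGAA lies 18 bases before the start between CCAAT matches at 53 and 8 bases. The window of Pttg1, which lies inside the gene as GENCODE has it, held neither motif. In Bub1b, Cenpe and Anln the CHR matches lie after the start, outside the stretches shown. In Birc5 the CHR match lies before the stretch shown, and in Ccnb2 the CHR matches lie on either side of it. A match of these letters is a description of the sequence and not evidence of a bound factor.

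Other genes of mitosis, kinesins left aside, were read from 6 lists of 105 entries, of which 100 were analysed and 99 tested. Here 29 rose, 0 fell and 70 did not pass (edgeR), against 5.09% higher and 4.58% lower over all genes tested. The median log2 fold change was 0.39, against 0.00 over all genes tested. At an unadjusted p under 0.05 (11.6% higher and 10.7% lower over all genes tested), 54 were higher and 2 lower, the latter being Anapc4 (-0.40) and Nipbl (-0.20). DESeq2's Wald test called 34 higher and 1, Nipbl, lower, against 5.94% and 5.31% over all genes. The count of 29 became 18 without WT replicate 2 and 18 without Arhgef1-/- replicate 2. The lists held many genes whose products serve the cell outside mitosis, such as cohesin and the core of the anaphase-promoting complex. Whether this bears on the counts or the median of these lists was not tested. From each list the genes with the smallest and second smallest p are named, which need not have the largest folds.

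For each list below, the share higher over all genes tested was 5.09%. Among 17 genes of the anaphase-promoting complex and its regulators 2 rose. These were Ube2c, its E2 enzyme (49.3, 28.6 and 38.3 to 80.3, 97.3 and 67.6 CPM; 1.07 ± 0.18), and its inhibitor Fbxo5 (0.80 ± 0.22), whose call was lost without WT replicate 2 (0.85), WT replicate 3 (0.65) or Arhgef1-/- replicate 2 (0.62). Among 24 further centromere and kinetochore genes 5 rose, among them Kntc1, which partners Zwilch (48.9, 33.97 and 30.4 to 90.4, 97.4 and 89.8 CPM; 1.29 ± 0.16, adjusted p = 5.12e-05), and Ccdc99 (Spdl1), which recruits dynein (1.03 ± 0.17). Kntc1 thus rose where its partner Zwilch did not pass, though the difference between them was not tested. Among 13 genes of cohesin and condensin 4 rose, among them Ncapg2 of condensin II (0.79 ± 0.11) and Cdca5, which encodes sororin (1.18 ± 0.19).

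Of 12 further mitotic kinases and CDK1 regulators tested 6 rose, among them the kinase gene Pbk (1.33 ± 0.21) and Cks1b, a CDK subunit (1.04 ± 0.18). Of 23 further spindle and centrosome genes 7 rose, among them Ckap2l (1.19 ± 0.16) and Dlgap5 (27.3, 23.1 and 20.9 to 51.7, 78.7 and 49.5 CPM; 1.33 ± 0.19). Of 10 further cytokinesis genes 5 rose, among them Cdca2, a phosphatase targeting subunit (1.15 ± 0.15), and Cit, the citron kinase that acts downstream of RhoA (35.8, 36.2 and 39.4 to 54.7, 57.5 and 73.7 CPM; 0.74 ± 0.15, adjusted p = 0.00394). In each of the 12 genes named from these lists all 3 Arhgef1-/- values lay above all 3 WT values. These genes were named by their small p, which favours such a separation. Of the 99 genes tested in these lists, 60 had all 3 Arhgef1-/- values above the WT values and 2 had all 3 below. Over all genes tested the shares were 13.7% and 13.5%.

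**Figure D5:**
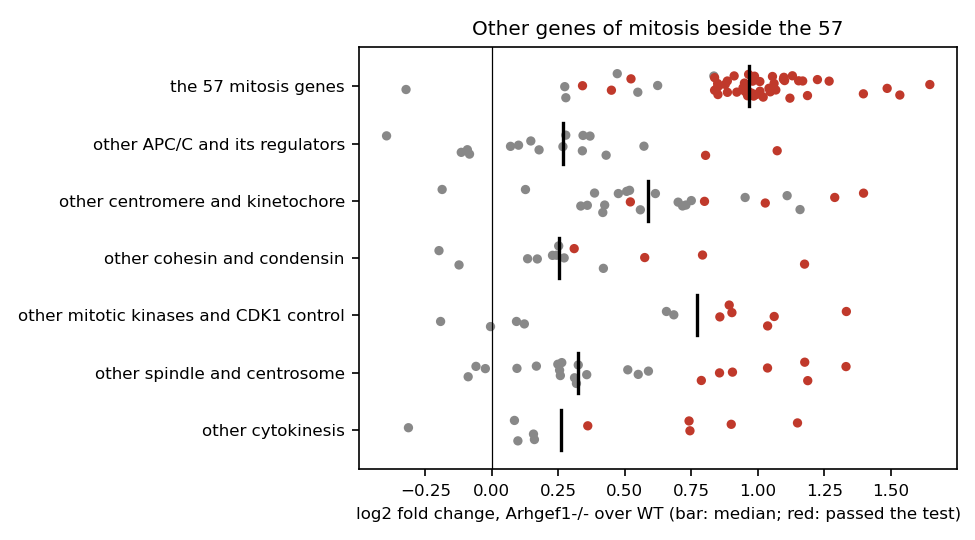
Log2 fold change, Arhgef1-/- over WT (x axis), of the 57 genes and of the 99 other mitosis genes tested, by list (y axis), with 1 point per gene, red where it passed the edgeR test, and a black bar at the median. The 57 have a median of 0.97, and the other lists have medians of 0.25 to 0.77.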

How the data were processed

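Gene expression was measured by RNA sequencing of total RNA, 1 library per sample, and each library was assigned its group and replicate by its title. The values deposited by the authors are raw read counts per gene symbol, not normalized; per the submitters' processing notes the build is mm10 and STAR, HTSeq and DESeq2 were used, while tool versions, annotation and strand setting are not stated. The members and all gene lists were chosen with earlier results of these data known, so their counts are descriptions and not independent support.

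Counts were filtered with edgeR's filterByExpr, scaled by TMM and fitted by quasi-likelihood on genotype alone (edgeR 4.0.16, R 4.3.3), with Benjamini-Hochberg adjustment over all genes tested and a threshold of 0.05. Errors of log2 fold changes are standard errors derived from the F statistic. CPM use TMM-scaled library sizes of all 6 libraries (factors 0.977 to 1.02). The common biological coefficient of variation was 0.189. The fit was tested on simulated counts with known changes. Alternatives were DESeq2 size factors, total counts, no filter, a filter of 5 CPM in at least 3 libraries, DESeq2 1.42.0, fits that omit 1 library each, and a fit with the replicate number as a block. Exon lengths, overlaps and near-identical copies (BLAST, 95% identity over at least 200 bases) came from GENCODE vM21, which is on mm10. The rule for named genes took every member, Arhgef1 and the 2 genes with the smallest p in each list of other mitosis genes. It also took any progenitor, erythroid, B cell or plasma cell marker past the test. Anapc4, Nipbl, Csf1r, Cadm1, S100a9, Cd4, Clec4a4 and H2-Ab1 were named after their values were seen. The stretches of promoter shown follow the rule given beside them.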

Additional observations from a re-analysis of the deposited data

How the results depend on the processing

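The calls of the 57 mitosis genes were the same with DESeq2 size factors, total counts, no filter, the stricter filter and DESeq2's Wald test, with 50 higher and 0 lower each time, and leaving out 1 library gave 38 to 49 higher and 0 lower. Of the 50 genes that rose, 38 kept their call whichever library was left out and 12 lost it at least once. The median log2 fold change of the 57 ran from 0.87 without WT replicate 2 to 1.07 without WT replicate 1. Over all genes tested, leaving out 1 library gave 310 to 583 higher (586 with all 6) and 264 to 489 lower (527 with all 6), and 18 to 32 of the other mitosis genes higher (29 with all 6). DESeq2 called 1 of the other mitosis genes lower. Cdc20, which did not pass in any fit, turned to -0.061 without WT replicate 3 and stood at 1.12 without WT replicate 1, its range over these fits. Each fit without a library has fewer samples, and the cause of single changes was not tested. Replicate numbers did not pair the libraries (correlations of deviations from the group means 0.05, -0.04 and -0.03 for numbers 1, 2 and 3). With the replicate number as a block, 50 of the 57 were higher, with a median of 0.98, and 496 genes were higher and 449 lower in all. Among genes with few reads, Ccnb1, Cenpt, Cdc25c and Cdc25b had standard errors of 0.32 to 0.36. Cdc20, with 706 reads over the 6 libraries, had the widest of the 57 (0.38). Whether depth set these errors was not tested.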
